A study of Homo sapiens with 12 samples.

Results

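The WNT set holds 45 genes, picked by exact match of the gene symbol among the 61806 genes of the count table. It comprises 13 WNT ligands, 2 genes of ligand secretion, 12 receptors and co-receptors, 8 secreted inhibitors, the R-spondin RSPO3 and 9 target readouts. RNA sequencing was carried out on wild-type H1 cells, a single human embryonic stem cell line, during cardiac differentiation. The 12 libraries form 6 groups of 2. All cells were first driven to mesendoderm with CHIR99021, a GSK3 inhibitor that activates WNT signaling from inside the cell. NP-IWP2 cells were left static (not passaged) and then received IWP2, which blocks the WNT acyltransferase PORCN. P-DF cells were passaged at the mesendoderm stage into DF medium and never received IWP2. P-IWP2 cells were passaged in the same way and did receive IWP2. Each treatment was sampled on Day 12 and Day 16. P-IWP2 against NP-IWP2 thus compares passaged with static cells with IWP2 kept, and P-IWP2 against P-DF compares IWP2 with no IWP2 in passaged cells. P-DF against NP-IWP2 changes both at once. Static cells without IWP2 were not analysed here. Both days of sampling came well after IWP2 was removed, so levels during the exposure were not measured. The labels do not state whether the libraries of a group were separate cultures, so p-values measure the spread between these libraries, which may be technical.

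WNT ligands are lipid-modified by PORCN and carried to the cell surface by WLS, and both steps are needed before a ligand can signal. Outside the cell, Frizzled (FZD) receptors pair with LRP5 or LRP6 to bind the ligand, and binding stabilizes β-catenin, which works with TCF/LEF factors to switch on target genes. SFRP proteins and FRZB bind the ligands, whereas DKK1 blocks the LRP co-receptors. R-spondins protect Frizzled receptors from the ubiquitin ligases ZNRF3 and RNF43. In the heart, early WNT signaling makes mesoderm, later inhibition favours cardiomyocytes, and ligands such as WNT11 and WNT5A act largely without β-catenin.

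FZD7, SFRP5 and DKK1 divided the libraries in a way that has to be given before the tests. The libraries held 14885589 to 19176239 counted reads (median 16452289). In NP-IWP2 the summed level of 8 fibroblast markers was 786 to 1394 FPKM (fragments per kilobase of exon, scaled to the library's total), and in 7 of 8 passaged libraries 24.0 to 44.4 FPKM. The remaining passaged library, P-IWP2 Day 12 replicate 5, held 756 FPKM. It also had the lowest summed level of 12 cardiomyocyte markers (2473 FPKM, against 3749 or more in the others) and a low level of KDR, a receptor of cardiac progenitors and endothelium (11.2 FPKM, where the other Day 12 libraries had 156.4 to 232.5). The other 7 endothelial markers, PECAM1 and CDH5 among them, were higher in it than in the other passaged Day 12 libraries, with PECAM1 at 1.18 FPKM against 0.01 or less. Its part in each result was measured by fitting with and without it. Without it, P-IWP2 Day 12 rests on 1 library, which is assumed to vary like the others. In bulk RNA, fewer cells of a type and less RNA per cell cannot be told apart.

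The clearest result lay among the secreted inhibitors. In static cells FRZB, SFRP5 and DKK1 were strongly expressed, and in passaged cells, with or without IWP2, each stood at a small fraction of that level on Day 16. On Day 16 the passaged cells also held more FZD2, FZD9 and DKK3 and less NKD1 than static cells. The ligand WNT2 and the readouts AXIN2, LEF1 and NKD1 were lower on Day 16 than on Day 12 in both passaged treatments. Their NP-IWP2 means fell as well, from 5.54 to 0.77 FPKM for WNT2 and from 5.14 to 2.78 for AXIN2. LEF1 fell there from 28.4 to 13.3 FPKM and NKD1 from 0.51 to 0.195, and none of these static falls passed with all libraries. IWP2 after passaging left no member past the threshold in the fit of all 12 libraries, where 0% of all genes passed on either day.

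**Figure D1:**
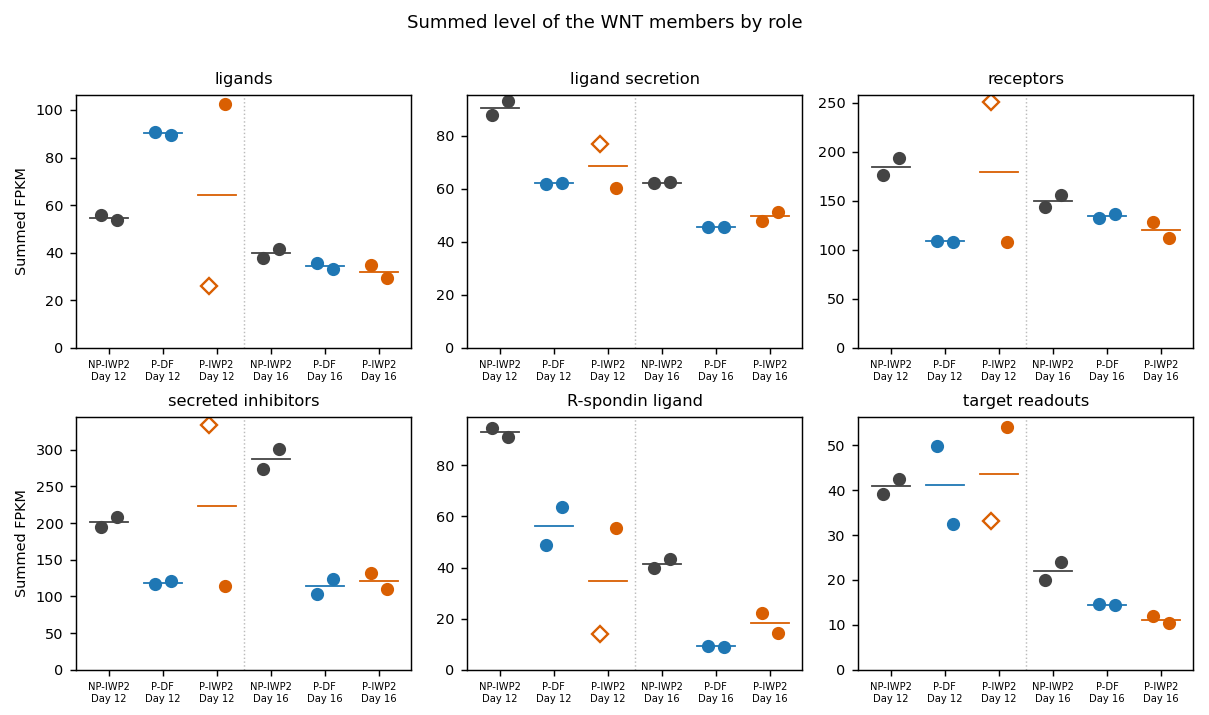
Summed level (FPKM, linear axis from 0) of the members of each role in the 12 libraries. Dots are libraries, bars are means of 2 libraries, the open diamond is P-IWP2 Day 12 replicate 5 and the dotted line separates the days. The secreted inhibitors sit at 194 to 301 FPKM in the 4 static libraries and at 103.5 to 132 FPKM in the passaged libraries other than the diamond, which is at 333 FPKM.

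In the fit of all 12 libraries, more members passed the threshold on Day 16 than on Day 12, as did a larger share of all genes. Without P-IWP2 Day 12 replicate 5 or 6, the P-DF count was no higher on Day 16 and the P-IWP2 count rose less. Members were tested by edgeR's quasi-likelihood test with Benjamini-Hochberg adjustment over all genes tested, and an adjusted p under 0.05 was called. Of 45 members, 35 passed the filter on low counts. For P-DF against NP-IWP2 on Day 12, 2 of 35 were lower (DKK1 and FRZB) and 0 higher, where 3.32% of all 19505 genes tested were lower and 0.697% higher. For P-IWP2 against NP-IWP2 on Day 12, FRZB alone was lower, against a background of 1.33%, and none was higher (0.328%). On Day 16, 6 members were lower and 4 higher in P-DF (background 9.86% and 5.39%), and 7 were lower and 3 higher in P-IWP2 (9.95% and 7.15%). These comparisons share the NP-IWP2 libraries. Both Day 16 counts of lower members include SFRP2, which met the filter only through the static libraries and P-IWP2 Day 12 replicate 5. The median log2 difference of the members was −0.37 for P-DF and −0.10 for P-IWP2 on Day 12, and −0.24 and −0.26 on Day 16. That of all genes was −0.00, 0.01, −0.02 and −0.03 in the same order.

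Without P-IWP2 Day 12 replicate 5, 37 members were tested among 20518 genes and many more passed. P-DF on Day 12 then had 15 members lower and 9 higher (background 13.6% and 8.25%). P-IWP2 on Day 12 had 10 lower and 8 higher (9.57% and 5.45%). On Day 16, P-DF had 15 lower and 8 higher (18.1% and 14.4%), and P-IWP2 had 14 lower and 5 higher (18.5% and 16.3%). For P-DF, none of whose own libraries had changed, the standard errors were smaller: the log2 difference of WNT5B on Day 12 was 1.02 ± 0.69 (SE) with the library and 1.02 ± 0.10 without it. For P-IWP2 on Day 12 the folds moved too, as given for FZD7, SFRP5 and DKK1 beside their levels. Counts also rose when replicate 6 of P-IWP2 on Day 12 was left out in its place: P-DF then had 24 members called on Day 12 and 22 on Day 16 (21.5% and 31.9% of all genes), and P-IWP2 15 and 19 (14.3% and 34.2%).

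DKK1 on Day 16 and FRZB on both days stayed past the threshold whichever single library was left out, and FRZB in P-IWP2 on Day 12 was lost when only its own groups were fitted. The other Day 16 calls were less firm. Without NP-IWP2 Day 16 replicate 2 the count of members called was 3 for P-DF and 3 for P-IWP2, and without replicate 1 it was 4 for P-DF. Without P-DF Day 16 replicate 3 or 4 it was 4 or 3 for P-DF, and without P-IWP2 Day 16 replicate 6 it was 5 for P-IWP2. RSPO3 and WNT9A in P-DF on Day 16 passed without P-IWP2 Day 12 replicate 5 or 6 and with all 12 libraries, but not with any other library left out.

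WNT11, a ligand used in heart morphogenesis, had the highest mean of the ligands over the 12 libraries and was the most abundant on Day 12, while WNT5A was above it in all 6 libraries of Day 16. It stood at 26.3 and 25.0 FPKM in NP-IWP2, 43.5 and 52.3 in P-DF, and 10.4 (replicate 5) and 48.8 in P-IWP2 on Day 12. On Day 16 it was 11.5 and 11.8 in NP-IWP2, 10.03 and 8.50 in P-DF, and 9.24 and 7.65 in P-IWP2. Passaged libraries were thus above the static ones on Day 12, except for replicate 5, and below them in FPKM on Day 16. The Day 16 order rests on the scaling: once FPKM is divided by edgeR's TMM factor of each library, NP-IWP2 and P-DF overlap. The Day 12 difference for P-DF was 0.99 ± 0.55 on the log2 scale (SE; edgeR adjusted p = 0.328), and 0.98 ± 0.11 without replicate 5 (adjusted p = 3.1e-05), when P-IWP2 stood at 1.02 ± 0.13 (adjusted p = 0.000162).

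WNT2, a ligand made in the early heart field and by endothelial cells, showed the widest swing over time of the ligands. Its Day 12 levels were 5.92 and 5.17 FPKM in NP-IWP2, 19.7 and 10.3 in P-DF, and 2.36 (replicate 5) and 23.0 in P-IWP2. By Day 16 they were 0.67 and 0.87 in NP-IWP2, 0.19 and 0.03 in P-DF, and 0.11 and 0.12 in P-IWP2. Static cells lay below the passaged libraries on Day 12, replicate 5 apart, and above all of them on Day 16. Neither day passed in the fit of all libraries (Day 12 P-DF 1.53 ± 0.84, edgeR adjusted p = 0.321, Day 16 P-DF −2.67 ± 1.26, adjusted p = 0.182). Without replicate 5 the values were 1.52 ± 0.27 on Day 12 and −2.67 ± 0.59 on Day 16 (adjusted p = 0.00132 and 0.00344). WNT2 overlaps CFTR on the other strand, and the strand used in counting is not given in the sources used here.

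WNT5B, a ligand active in mesoderm, was 9.09 and 8.79 FPKM in NP-IWP2, 17.4 and 16.8 in P-DF and 2.31 (replicate 5) and 18.8 in P-IWP2 on Day 12. On Day 16 WNT5B was 5.77 and 6.00, 9.55 and 9.02, and 10.8 and 9.31 FPKM in the same order. All passaged libraries but replicate 5 lay above the static libraries of their day. In the fit of P-DF and NP-IWP2 over both days, which holds 8 libraries and not replicate 5, WNT5B was higher in P-DF by 0.94 ± 0.07 on the log2 scale (edgeR adjusted p = 1.3e-05).

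WNT5A, a mainly β-catenin-independent ligand, was 11.4 and 11.1 FPKM in NP-IWP2, 7.81 and 7.87 in P-DF, and 7.76 and 9.14 in P-IWP2 on Day 12. Its Day 16 levels were 17.2 and 19.7, 13.2 and 13.2, and 12.1 and 10.1 FPKM. Here replicate 5 did not stand apart, and every passaged library lay below the static libraries of its day. WNT5A was lower in P-DF over both days by a log2 difference of −0.36 ± 0.07 (edgeR adjusted p = 0.00274).

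WNT3 and WNT9A, both ligands known to signal through β-catenin, were scarcer and moved in opposite directions. WNT3 was 2.52 and 2.78 FPKM in NP-IWP2, 1.53 and 1.38 in P-DF and 1.89 and 1.81 in P-IWP2 on Day 12, and 1.78 and 1.81, 1.27 and 0.99, and 1.3 and 1.01 on Day 16. WNT9A was 0.21 and 0.15 FPKM, 0.42 and 0.49, and 0.22 and 0.44 on Day 12, and 0.47 and 0.54, 1.15 and 1.04, and 0.83 and 0.55 on Day 16. Over both days WNT3 was lower (−0.63 ± 0.14, edgeR adjusted p = 0.00741) and WNT9A higher (1.34 ± 0.20, adjusted p = 0.000889) in P-DF than in NP-IWP2. WNT9A was the ligand that also passed on Day 16 alone (1.34 ± 0.37, adjusted p = 0.0416), though not when scaled by total counts.

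WNT2B stood at 0.15 to 0.97 FPKM, and on Day 16 its log2 difference was −1.0 ± 0.37 for P-DF and −1.03 ± 0.37 for P-IWP2 (edgeR adjusted p = 0.101 and 0.0866). Without replicate 5 both passed (adjusted p = 0.0167 and 0.0134). The other 6 ligands, WNT3A, WNT4, WNT6, WNT7A, WNT7B and WNT10B, were at 0.30 FPKM or less in every library and were below the filter. As a group the ligands summed to 56.0 and 53.5 FPKM in NP-IWP2, 90.8 and 89.7 in P-DF and 26.1 (replicate 5) and 102.6 in P-IWP2 on Day 12, so that on this day static libraries lay between replicate 5 and the other passaged libraries. On Day 16 the sums were 38.0 and 41.5, 35.8 and 33.2, and 34.8 and 29.3 FPKM. The Day 16 order rests on the scaling: on counts scaled by TMM and exon length the group means were 38.7, 39.5 and 37.8.

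**Figure D2:**
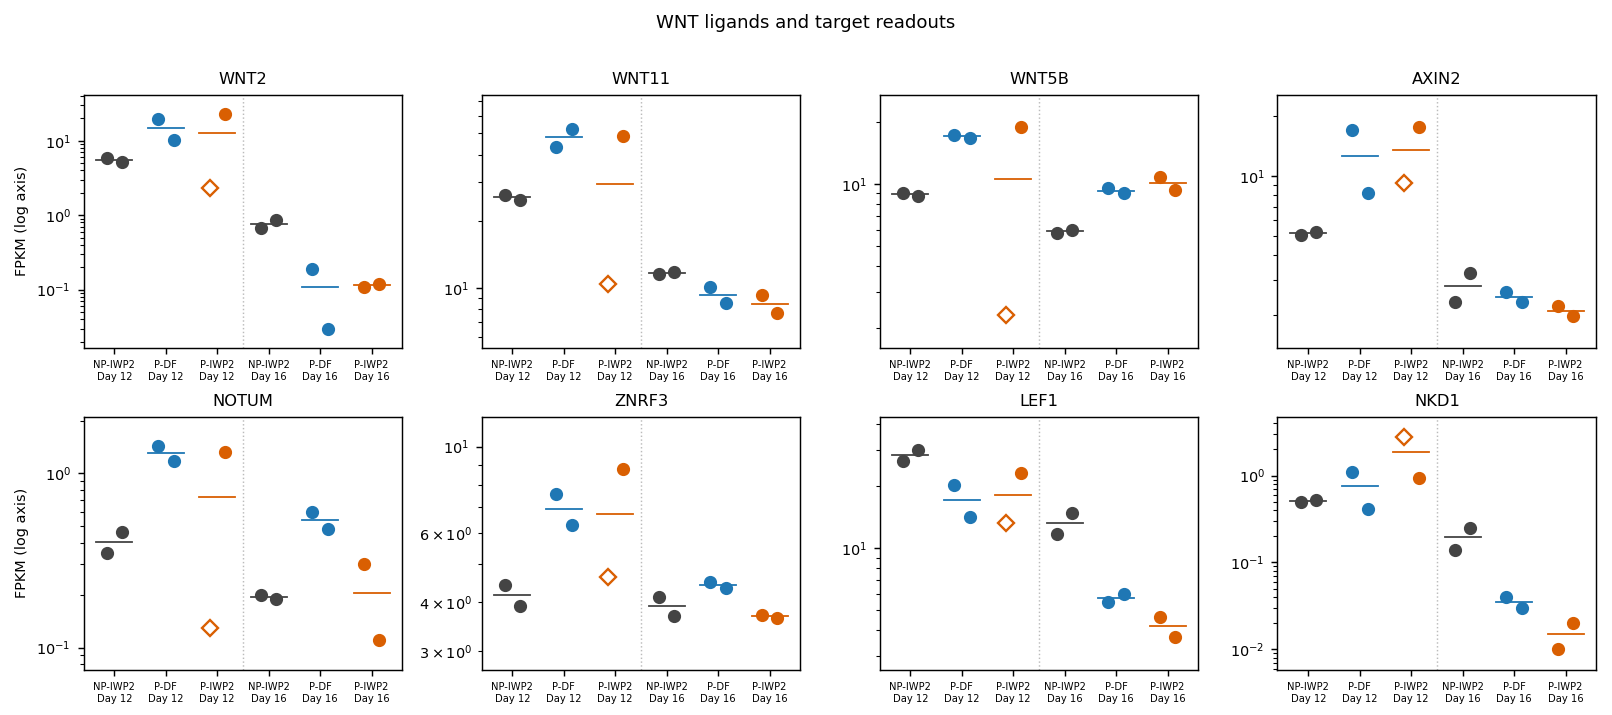
Levels (FPKM, log axis) of the ligands WNT2, WNT11 and WNT5B and the readouts AXIN2, NOTUM, ZNRF3, LEF1 and NKD1 in the 12 libraries. Dots are libraries, bars are means of 2 libraries, the open diamond is P-IWP2 Day 12 replicate 5 and the dotted line separates the days. WNT2 lies at 5.17 to 23.0 FPKM on Day 12, with the diamond at 2.36, and at 0.03 to 0.87 on Day 16.

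Ligand secretion was measured by its enzyme and its carrier. PORCN, the enzyme that IWP2 blocks, was 1.62 and 1.5 FPKM in NP-IWP2, 1.01 and 1.25 in P-DF and 1.85 and 1.42 in P-IWP2 on Day 12, and 1.08 and 1.27, 1.40 and 1.44, and 1.48 and 1.31 on Day 16. On Day 16 the passaged libraries were all above the static ones, by 0.51 ± 0.18 for P-DF and 0.53 ± 0.18 for P-IWP2 on the log2 scale (edgeR adjusted p = 0.082 and 0.0685, and 0.039 and 0.03 without replicate 5). WLS, the carrier, was far more abundant, with 86.1 and 91.7 FPKM in NP-IWP2, 61.0 and 60.9 in P-DF and 75.2 and 58.8 in P-IWP2 on Day 12. On Day 16 WLS was 61.3 and 61.2, 44.2 and 44.3, and 46.6 and 50.03 FPKM. Static libraries were highest in FPKM on each day. With TMM scaling, P-IWP2 replicate 6 on Day 16 lay above NP-IWP2 replicate 2. Over both days WLS was lower in P-DF by a log2 difference of −0.36 ± 0.07 (edgeR adjusted p = 0.00471).

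Among the receptors, FZD2 and FZD9 differed most clearly on Day 16. FZD2, a receptor for ligands such as WNT5A, was 24.9 and 20.0 FPKM in NP-IWP2, 46.9 and 50.7 in P-DF, and 47.0 and 40.5 in P-IWP2 on Day 16. On Day 12 it had been 15.3 and 14.4, 8.39 and 6.57, and 15.0 (replicate 5) and 8.08 FPKM. The static libraries thus lay above the passaged ones other than replicate 5 on Day 12 and below every one on Day 16. The Day 16 log2 differences were 1.34 ± 0.23 in P-DF and 1.23 ± 0.23 in P-IWP2 (edgeR adjusted p = 0.00576 and 0.00781). On Day 12 they were −0.90 ± 0.23 and −0.41 ± 0.23 (adjusted p = 0.0617 and 0.56), and without replicate 5 −0.91 ± 0.15 and −0.79 ± 0.19 (adjusted p = 0.000824 and 0.0134). FZD2 is an hg38 chromosome 17 gene (chr17:44557484-44561262).

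FZD9, a Frizzled receptor best known from brain and bone, was low in all Day 12 libraries (0.74 and 0.36, 0.49 and 0.32, and 0.14 and 0.39 FPKM). On Day 16 it was 0.34 and 0.40 in NP-IWP2, 2.44 and 2.20 in P-DF, and 2.64 and 2.11 in P-IWP2. The Day 12 libraries of the treatments overlapped, and on Day 16 passaged and static libraries did not. The Day 16 log2 differences were 2.89 ± 0.49 and 2.96 ± 0.49 (edgeR adjusted p = 0.00603 and 0.00514).

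FZD7, a receptor abundant in stem cells and mesoderm, had the highest mean of the receptors over the 12 libraries, which rested on replicate 5, and on Day 16 FZD2 was above it in every library. Its Day 12 levels were 55.6 and 67.6 FPKM in NP-IWP2, 11.5 and 6.57 in P-DF, and 114.4 (replicate 5) and 11.0 in P-IWP2. On Day 16 it was 14.7 and 17.7 in NP-IWP2, 3.63 and 6.44 in P-DF, and 7.44 and 5.32 in P-IWP2. Every passaged library but replicate 5 lay below the static libraries of its day, and replicate 5 lay above all others. Over both days FZD7 was lower in P-DF by a log2 difference of −2.09 ± 0.30 (edgeR adjusted p = 0.000702). For P-IWP2 on Day 12 the difference was −0.09 ± 0.73 with replicate 5 and −2.40 ± 0.34 without it (adjusted p = 0.987 and 0.000382).

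FZD1 and FZD8, further Frizzled receptors, were lower in P-DF over both days. FZD1 was 12.6 and 17.6 FPKM in NP-IWP2, 5.70 and 5.97 in P-DF, and 21.9 (replicate 5) and 6.34 in P-IWP2 on Day 12, and 26.1 and 34.2, 19.2 and 19.3, and 13.5 and 11.4 on Day 16. FZD8 was 15.4 and 15.3 FPKM, 9.64 and 11.8, and 14.6 and 9.11 on Day 12, and 21.8 and 18.1, 11.8 and 11.1, and 14.5 and 14.7 on Day 16. For both genes the static libraries were above all passaged libraries of the day in FPKM, with replicate 5 the exception for FZD1. For FZD8 on Day 16 this rests on the scaling, since with TMM scaling P-IWP2 replicate 6 lay above NP-IWP2 replicate 2. Over both days the log2 differences in P-DF were −0.85 ± 0.18 for FZD1 and −0.52 ± 0.10 for FZD8 (edgeR adjusted p = 0.00539 and 0.00324).

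The co-receptor LRP5 was 12.4 and 12.6 FPKM in NP-IWP2, 9.13 and 8.72 in P-DF and 11.5 and 9.40 in P-IWP2 on Day 12, and 9.39 and 10.8, 6.90 and 6.12, and 6.26 and 4.70 on Day 16. It was highest in static cells on each day, and in P-IWP2 on Day 16 it was lower by a log2 difference of −0.61 ± 0.12 (edgeR adjusted p = 0.0101). Its partner LRP6 ranged from 6.82 to 12.7 FPKM and did not pass in any treatment comparison, with a Day 16 log2 difference of −0.16 ± 0.10 for P-DF and −0.23 ± 0.10 for P-IWP2.

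FZD3, a receptor of planar polarity signaling, was 5.5 and 5.64 FPKM in NP-IWP2, 6.88 and 7.10 in P-DF and 5.77 and 7.12 in P-IWP2 on Day 12, and 4.13 and 4.94, 4.57 and 4.64, and 4.22 and 3.51 on Day 16. On Day 12 its passaged libraries lay above the static ones in FPKM, though with TMM scaling replicate 5 lay below them. The groups overlapped on Day 16, and over both days FZD3 was higher in P-DF by 0.32 ± 0.07 on the log2 scale (edgeR adjusted p = 0.00534). FZD5 was 2.47 and 2.13 FPKM, 1.31 and 1.37, and 3.22 and 1.26 on Day 12, and 2.32 and 2.36, 1.99 and 2.08, and 1.37 and 2.17 on Day 16, and it passed only for P-DF on Day 12 in the fit without replicate 5 (−0.70 ± 0.21, adjusted p = 0.0338). FZD4 (6.75 to 35.1 FPKM) and FZD6 (13.3 to 21.5) passed in no treatment comparison of either fit, and FZD10 was at 0.12 FPKM or less.

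**Figure D3:**
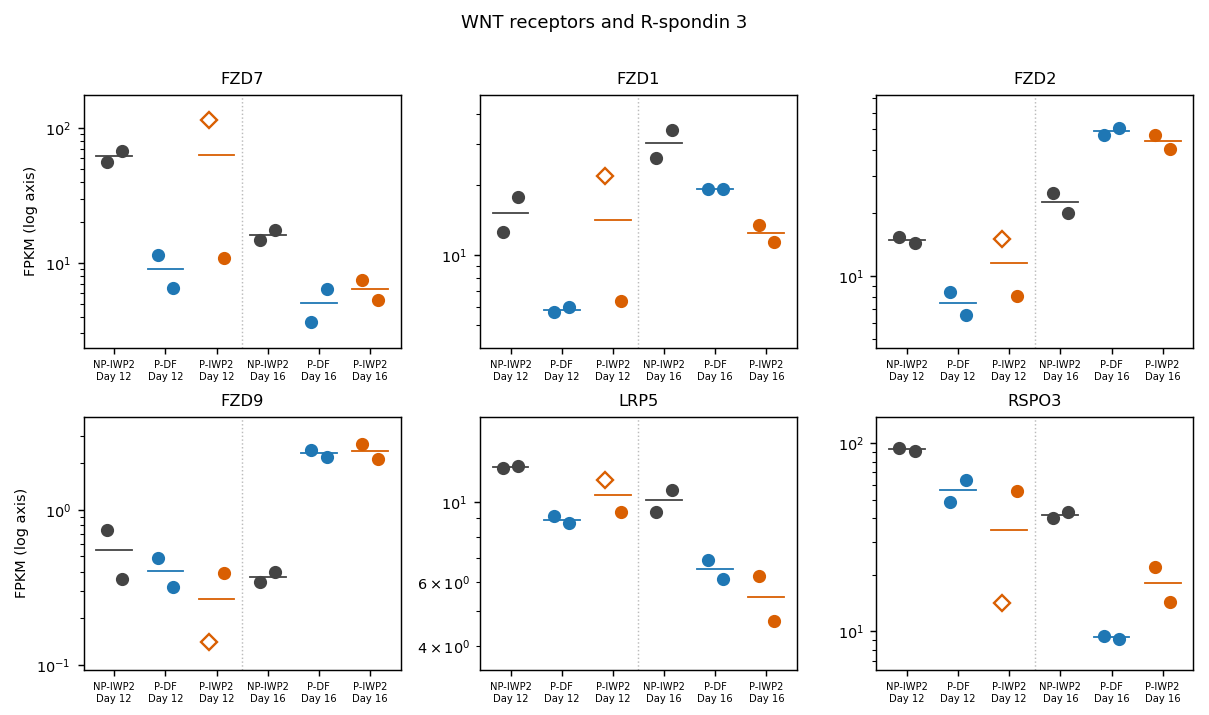
Levels (FPKM, log axis) of FZD7, FZD1, FZD2, FZD9, LRP5 and RSPO3 in the 12 libraries. Dots are libraries, bars are means of 2 libraries, the open diamond is P-IWP2 Day 12 replicate 5 and the dotted line separates the days. FZD9 rises to 2.11 to 2.64 FPKM in the 4 passaged Day 16 libraries and stays at 0.74 FPKM or less elsewhere.

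FRZB, a secreted antagonist that binds WNT ligands, was the member that passed in every comparison of passaged with static cells. On Day 12 it was 69.4 and 51.5 FPKM in NP-IWP2 (60.4 ± 12.7, SD, n = 2), 4.23 and 3.04 in P-DF, and 3.32 (replicate 5) and 4.43 in P-IWP2. On Day 16 it was 96.6 and 74.9 in NP-IWP2, 4.03 and 4.15 in P-DF, and 2.68 and 2.65 in P-IWP2. The 4 static libraries were far above all 8 passaged ones, replicate 5 included. The log2 differences on Day 12 were −3.97 ± 0.28 for P-DF and for P-IWP2 alike (edgeR adjusted p = 0.00024 and 0.000251). On Day 16 they were −4.17 ± 0.28 and −4.74 ± 0.29 (adjusted p = 8.6e-05 and 5.6e-05).

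SFRP5, a secreted ligand-binding antagonist, shared the static pattern but not the level in replicate 5. It was 20.3 and 32.4 FPKM in NP-IWP2, 0.82 and 0.47 in P-DF, and 51.5 (replicate 5) and 1.28 in P-IWP2 on Day 12. Its Day 16 levels were 36.5 and 56.6, 0.66 and 0.85, and 0.50 and 0.58 FPKM. Static libraries and replicate 5 were thus high and all other passaged libraries low. The Day 16 log2 differences were −5.69 ± 1.28 in P-DF and −6.13 ± 1.32 in P-IWP2 (edgeR adjusted p = 0.0189 and 0.0151). For P-DF on Day 12 the difference was −5.26 ± 1.3 with replicate 5 in the fit and −5.27 ± 0.32 without it (adjusted p = 0.057 and 1.1e-07). On Day 12 P-IWP2 stood at −0.12 ± 0.98 with replicate 5 and −4.26 ± 0.38 without it (adjusted p = 0.986 and 7.7e-06).

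DKK1, which blocks LRP5 and LRP6, was 17.1 and 25.7 FPKM in NP-IWP2, 2.03 and 0.71 in P-DF, and 23.8 (replicate 5) and 4.25 in P-IWP2 on Day 12. Its Day 16 levels were 28.8 and 38.2 in NP-IWP2, 0.14 and 0.05 in P-DF, and 0.17 and 0.07 in P-IWP2. As reads, the Day 16 libraries held 1221 and 1364 in NP-IWP2, 5 and 2 in P-DF, and 7 and 3 in P-IWP2. DKK1 was thus high in static cells on both days and nearly undetected in passaged cells on Day 16. The Day 12 log2 differences were −3.88 ± 0.73 in P-DF and −0.70 ± 0.62 in P-IWP2 (edgeR adjusted p = 0.0242 and 0.776), the latter −2.24 ± 0.38 without replicate 5 (adjusted p = 0.00123). The Day 12 call for P-DF was lost when any NP-IWP2 library or either P-DF Day 12 library was left out. On Day 16 they were −8.22 ± 1.00 and −7.80 ± 0.95 (adjusted p = 0.00137 and 0.00132).

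SFRP2, a relative of SFRP5, was much scarcer. It was 0.42 and 0.52 FPKM in NP-IWP2, 0.07 and 0.03 in P-DF, and 0.74 (replicate 5) and 0 in P-IWP2 on Day 12, and 2.78 and 6.02, 0.03 and 0, and 0.03 and 0 on Day 16. On Day 16 the static libraries summed to 299 reads and each passaged group to 1 read. The ratio of static to P-DF was 247.6 (exact 95% interval 44.1 to 9811.4, counting error only) and that of static to P-IWP2 261.8 (46.6 to 10375.4). Both Day 16 comparisons passed (edgeR adjusted p = 0.00847 and 0.00756). SFRP2 met the filter on low counts only through the static libraries and replicate 5, since every other passaged library held 0 to 2 reads. The p-values are therefore not taken as support beyond the reads themselves.

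SFRP1 and DKK3 did not share this pattern. SFRP1, another SFRP antagonist, had the highest mean of the inhibitors, with 76.5 and 87.0 FPKM in NP-IWP2, 97.0 and 106.3 in P-DF, and 246.5 (replicate 5) and 92.3 in P-IWP2 on Day 12. On Day 16 SFRP1 was 99.2 and 115, 80.2 and 97.8, and 103.8 and 83.2 FPKM, and the treatments overlapped. DKK3, a DKK relative that does not act on the LRP co-receptors as DKK1 does, was 10.2 and 11.4 FPKM, 12.2 and 10.02, and 6.76 and 11.7 on Day 12, and 9.80 and 9.97, 18.3 and 20.9, and 24.5 and 24.3 on Day 16. The Day 16 log2 differences of DKK3 were 1.22 ± 0.27 in P-DF and 1.58 ± 0.27 in P-IWP2 (edgeR adjusted p = 0.0181 and 0.00613). DKK3 shares part of its position with USP47 on the other strand. SFRP4 was at 0.17 FPKM or less in every library, and DKK2 at 0.05 or less except 0.55 in replicate 5.

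Cell type markers moved with the inhibitors. The summed level of 12 hepatic markers was 488 to 1027 FPKM in the static libraries and 5.96 to 20.1 in all 8 passaged ones, replicate 5 at 8.45, as FRZB was high in static and low in all passaged libraries. The summed level of 8 epicardial markers was 40.3 to 99.7 FPKM in static cells, 141.8 in replicate 5 and 0.41 to 0.86 in the other passaged libraries, as for SFRP5. Among the fibroblast markers, the collagens COL1A1 and COL3A1 put replicate 5 with the static libraries, whereas LUM, at 73.2 to 182.8 FPKM in static cells and 0.55 in replicate 5, put it with the passaged ones. No hepatic marker was at 0 in the static libraries, whereas 2 to 9 of 12 were in the passaged ones. Their part in the inhibitor result was not tested.

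**Figure D4:**
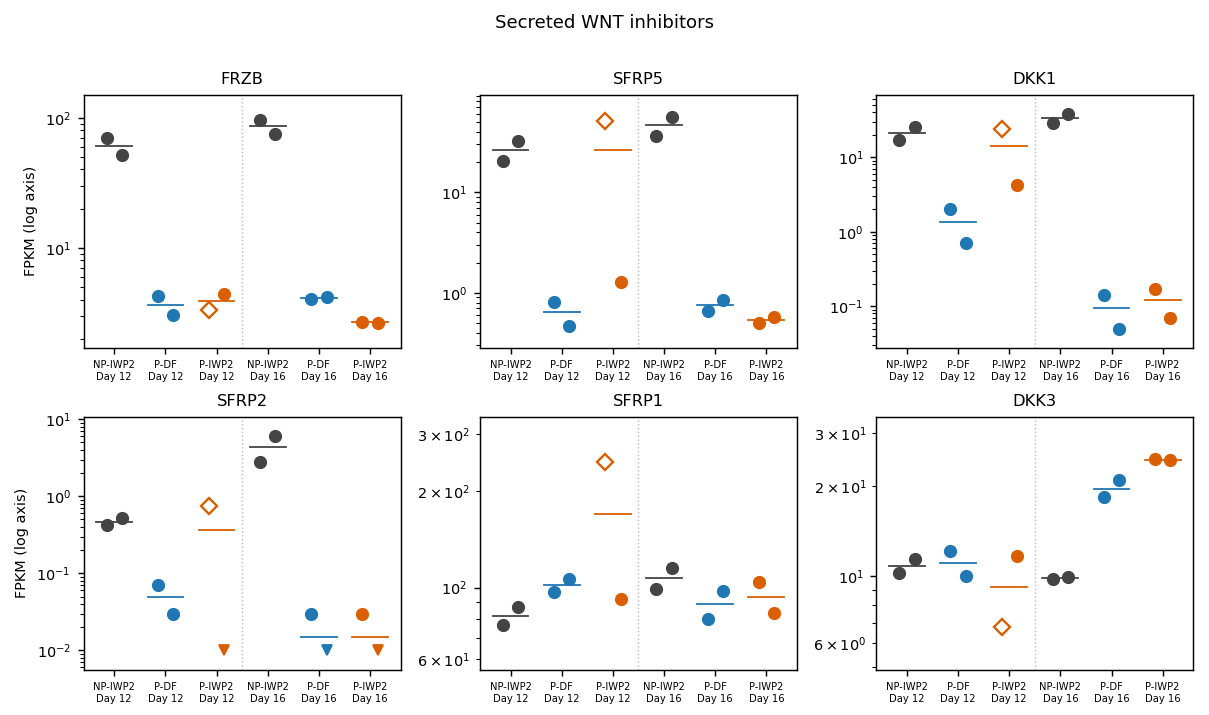
Levels (FPKM, log axis) of the secreted inhibitors FRZB, SFRP5, DKK1, SFRP2, SFRP1 and DKK3 in the 12 libraries. Dots are libraries, bars are means of 2 libraries, triangles at the lower edge are libraries listed at 0, the open diamond is P-IWP2 Day 12 replicate 5 and the dotted line separates the days. The diamond lies with the passaged libraries for FRZB (3.32 FPKM) and with the static ones for SFRP5 (51.5) and DKK1 (23.8).

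RSPO3, an R-spondin that raises the number of Frizzled receptors at the surface, was 94.7 and 91.1 FPKM in NP-IWP2, 49.0 and 63.6 in P-DF, and 14.2 (replicate 5) and 55.4 in P-IWP2 on Day 12. By Day 16 it was 39.9 and 43.2 in NP-IWP2, 9.47 and 9.13 in P-DF, and 22.1 and 14.3 in P-IWP2. Static libraries were highest on each day, and on Day 16 P-IWP2 lay between NP-IWP2 and P-DF with no overlap. The Day 16 log2 difference was −1.93 ± 0.53 in P-DF (edgeR adjusted p = 0.0403) and −0.93 ± 0.52 in P-IWP2 (adjusted p = 0.243, and 0.000408 without replicate 5).

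The target readouts gave no common direction. AXIN2, a direct β-catenin target that feeds back on the pathway, was 5.05 and 5.23 FPKM in NP-IWP2, 17.1 and 8.25 in P-DF, and 9.18 and 17.7 in P-IWP2 on Day 12. By Day 16 it was 2.33 and 3.23, 2.62 and 2.31, and 2.22 and 1.98 FPKM. All 4 passaged libraries lay above the static ones on Day 12, and on Day 16 the groups met. The Day 12 log2 differences were 1.39 ± 0.40 in P-DF and 1.40 ± 0.40 in P-IWP2 (edgeR adjusted p = 0.0833 and 0.149). Without replicate 5 both passed, at 1.39 ± 0.25 and 1.87 ± 0.29 (adjusted p = 0.00141 and 0.000644).

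NOTUM and ZNRF3, feedback inhibitors that inactivate ligands and remove receptors, were higher in P-DF over both days. NOTUM was 0.35 and 0.46 FPKM in NP-IWP2, 1.43 and 1.18 in P-DF and 0.13 (replicate 5) and 1.33 in P-IWP2 on Day 12, and 0.20 and 0.19, 0.60 and 0.48, and 0.30 and 0.11 on Day 16. ZNRF3 was 4.43 and 3.91 FPKM, 7.57 and 6.29, and 4.64 and 8.78 on Day 12, and 4.12 and 3.69, 4.52 and 4.35, and 3.71 and 3.65 on Day 16. P-DF lay above NP-IWP2 on each day for both genes. Over both days the log2 differences were 1.72 ± 0.23 for NOTUM and 0.60 ± 0.12 for ZNRF3 (edgeR adjusted p = 0.000479 and 0.00434).

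LEF1 and NKD1 went the other way on Day 16. LEF1, a TCF/LEF factor that is itself a target, was 26.6 and 30.2 FPKM in NP-IWP2, 20.3 and 14.2 in P-DF and 13.3 and 23.2 in P-IWP2 on Day 12, and 11.8 and 14.8, 5.5 and 5.99, and 4.65 and 3.70 on Day 16. NKD1, an intracellular feedback inhibitor, was 0.50 and 0.52 FPKM, 1.10 and 0.41, and 2.76 and 0.94 on Day 12, and 0.14 and 0.25, 0.04 and 0.03, and 0.01 and 0.02 on Day 16. Static libraries were highest for both genes on Day 16, when NKD1 rested on 48 and 70 reads in NP-IWP2, 11 and 10 in P-DF, and 3 and 6 in P-IWP2. In P-IWP2 on Day 16 LEF1 was lower by a log2 difference of −1.39 ± 0.30 and NKD1 by −3.50 ± 0.74 (edgeR adjusted p = 0.0152 and 0.0141). NKD1 was also lower in P-DF (−2.22 ± 0.65, adjusted p = 0.0496), where LEF1 stood at −0.97 ± 0.30 (adjusted p = 0.0561).

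LGR5, an R-spondin receptor and stem cell target gene, was 0.09 and 0.12 FPKM in NP-IWP2, 0.01 and 0.02 in P-DF and 1.62 (replicate 5) and 0.01 in P-IWP2 on Day 12, and 0.24 and 0.33, 0 and 0.03, and 0 and 0.01 on Day 16. Replicate 5 held 132 of its reads, and every other passaged library 0 to 3. LGR5 thus met the filter on low counts only through the static libraries and replicate 5. The Day 16 sums were 52 reads in NP-IWP2 and 3 in P-DF, a ratio of 14.4 (exact 95% interval 4.6 to 71.9, counting error only). TCF7 stayed between 0.87 and 1.91 FPKM, RNF43 between 0.07 and 0.49, and SP5 had 14 reads over all 12 libraries and was below the filter.

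**Figure D5:**
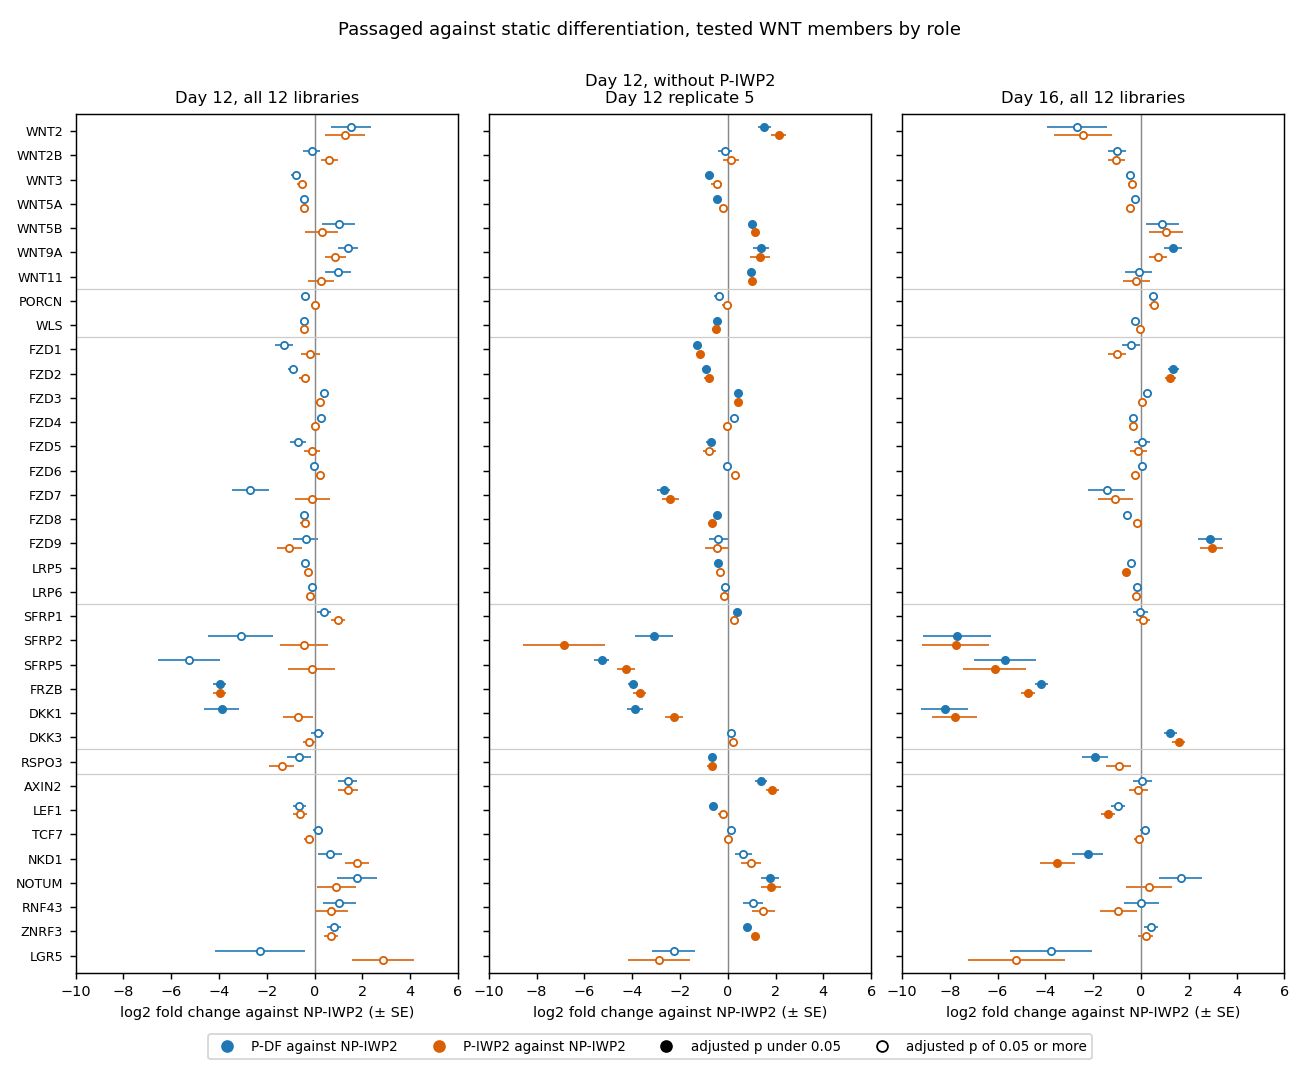
Log2 differences from NP-IWP2 (± SE, edgeR) of the tested members in P-DF and P-IWP2, in panels for Day 12, Day 12 without P-IWP2 Day 12 replicate 5, and Day 16. Filled points passed at an adjusted p under 0.05. FRZB is filled in all panels, and DKK1, SFRP5 and SFRP2 lie furthest below 0 on Day 16.

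Promoters of 3 members are shown because SP5 and DKK1 are well-known direct WNT targets, the first hardly read in any library and the second hardly read in passaged cells on Day 16, and FRZB is the member that passed throughout. The windows are the 250 bases upstream of each RefSeq start (GRCh38.p14), read on the gene's strand. Capitals mark each CTTTG, the core of the TCF/LEF motif CTTTGAT, or CAAAG where it lies on the other strand. They are SP5 at chr2:170715087-170715336 (plus strand), DKK1 at chr10:52314031-52314280 (plus strand) and FRZB at chr2:182866638-182866887 (minus strand).
SP5: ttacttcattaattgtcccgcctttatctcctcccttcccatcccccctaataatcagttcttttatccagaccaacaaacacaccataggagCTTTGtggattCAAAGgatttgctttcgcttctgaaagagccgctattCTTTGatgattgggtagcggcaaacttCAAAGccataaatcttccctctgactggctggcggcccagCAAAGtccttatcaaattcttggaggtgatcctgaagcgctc
DKK1: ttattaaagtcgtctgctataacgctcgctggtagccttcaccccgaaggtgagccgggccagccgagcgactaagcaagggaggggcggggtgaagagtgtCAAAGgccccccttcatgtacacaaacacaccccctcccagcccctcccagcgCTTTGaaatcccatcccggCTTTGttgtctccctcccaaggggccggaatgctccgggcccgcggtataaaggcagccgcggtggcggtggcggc
FRZB: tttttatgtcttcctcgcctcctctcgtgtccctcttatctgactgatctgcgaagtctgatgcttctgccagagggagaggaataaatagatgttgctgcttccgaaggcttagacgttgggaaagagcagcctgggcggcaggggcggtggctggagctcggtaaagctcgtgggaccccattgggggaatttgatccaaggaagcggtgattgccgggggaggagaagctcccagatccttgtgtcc

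SP5 held 5 cores, DKK1 held 3 and FRZB held 0. On either strand, CTTTGAT was in 2.26% of the 35116 promoters of the table. It was in 1 of the 35 promoters of the 28 members listed there, that of SP5. The other 17 members, among them the readouts AXIN2, NKD1, NOTUM, ZNRF3 and LGR5, had no promoter there and were not searched. The core CTTTG, which the longer motif contains and which was chosen after the data were seen, was in 42.1% of all promoters and in 10 of the 35. A match is a run of letters and not a measured binding site.

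IWP2 after passaging left P-IWP2 and P-DF close for most members. None of the 35 tested members passed on Day 12 or Day 16 by edgeR, nor any of 33 over both days, and the background was 0% in each comparison. At an unadjusted p under 0.05, 6 members passed on Day 12 (17.1%, against 10.6% of all genes) and 1 on Day 16 (2.86%, against 8.03%). DESeq2 called 2 members on Day 12 and 0 on Day 16, where it called 0.981% and 0.601% of all genes. The 95% intervals on Day 16 show what was resolved: the log2 difference was 0.02 for PORCN (−0.38 to 0.42), 0.18 for WLS (−0.10 to 0.45), −0.12 for FZD2 (−0.61 to 0.38) and −0.18 for AXIN2 (−1.10 to 0.73). For scarce genes the interval was wide, as for DKK1 (0.42, −3.12 to 3.96) and SFRP5 (−0.44, −3.74 to 2.85). A p above the threshold does not show that members were equal.

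Without replicate 5, RSPO3 and FZD1 passed between the passaged treatments on Day 16. RSPO3 was higher in P-IWP2 by 1.01 ± 0.16 on the log2 scale (95% interval 0.67 to 1.34, edgeR adjusted p = 0.00649), against 1.00 ± 0.52 with the library (adjusted p = 0.688). FZD1 was lower by a log2 difference of −0.59 ± 0.14 (−0.89 to −0.28, adjusted p = 0.046). The background was 1.64% higher and 0.843% lower. On Day 12 none passed without replicate 5, and 3 had an unadjusted p under 0.05. When replicate 6 was left out in its place, so that replicate 5 alone stood for P-IWP2 on Day 12, 24 members passed, as did 29.2% of all genes.

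From Day 12 to Day 16 the readouts AXIN2, LEF1 and NKD1 and the ligand WNT2 fell in passaged cells, while FZD2, FZD9, DKK3, WNT5A and WNT9A rose, the last in P-IWP2 not passing without replicate 5. In P-DF 6 members were higher and 7 lower on Day 16 (background 6.79% and 6.81%), and in P-IWP2 6 were higher and 11 lower (12.9% and 14.1%). In NP-IWP2 WNT5A was higher and the receptor FZD4 lower (0.877% and 1.10%). There the means of AXIN2, LEF1, NKD1 and WNT2 were also lower on Day 16, and those of FZD2 and WNT9A higher, but none of these passed in the fit of all 12 libraries. Many more members passed over time in NP-IWP2 without replicate 5, so these changes are not shown to be particular to passaged cells. WNT2 had log2 differences of −6.93 ± 1.21 in P-DF and −6.43 ± 1.17 in P-IWP2 (edgeR adjusted p = 0.00803 and 0.00616). AXIN2 had −2.11 ± 0.41 and −2.31 ± 0.41 (adjusted p = 0.012 and 0.00571), and NKD1 −4.14 ± 0.65 and −6.56 ± 0.73 (adjusted p = 0.00497 and 0.000943). FZD2 had 2.96 ± 0.24 and 2.36 ± 0.23 (adjusted p = 0.000576 and 0.000705), whereas in NP-IWP2 it had 0.72 ± 0.22 (adjusted p = 0.131).

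In the fit of all 12 libraries, the difference between passaged and static cells changed with the day for few members. For P-DF 1 member passed, FZD2, which was higher (background 0.174% higher and 0.308% lower). For P-IWP2 FZD2 and FZD9 were higher and DKK1 and NKD1 lower (0.774% and 1.06%). Without P-IWP2 Day 12 replicate 5 more members passed for each treatment, so the small number belongs to the fit of all libraries.

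WNT5A had similar log2 differences over time in each treatment, 0.82 ± 0.14 for NP-IWP2, 1.01 ± 0.14 for P-DF and 0.79 ± 0.14 for P-IWP2 (edgeR adjusted p = 0.0268, 0.00308 and 0.00584). FZD4 likewise was lower on Day 16 by −1.0 ± 0.18, −1.61 ± 0.18 and −1.38 ± 0.18 (adjusted p = 0.0281, 0.00105 and 0.00167). RSPO3 was lower in P-DF (−2.34 ± 0.54, adjusted p = 0.0237). DKK1, SFRP5 and FZD7 were lower in P-IWP2, and there the Day 12 mean includes the high value of replicate 5. Without that library DKK1 was still called, SFRP5 and FZD7 were not, and the counts were 7 higher and 15 lower in P-IWP2 (12.4% and 11.3%), 9 and 13 in P-DF (15.1% and 14.1%), and 9 and 10 in NP-IWP2 (9.23% and 7.91%). KDR was at 156.4 to 232.5 FPKM on Day 12, replicate 5 apart. On Day 16 it was 39.3 and 39.2 FPKM in NP-IWP2 and 9.89 to 15.0 in passaged cells. WNT2 was also lower in NP-IWP2 on Day 16 (0.67 and 0.87 FPKM) than on Day 12 (5.92 and 5.17). Like KDR, it was low in replicate 5 and lowest in passaged cells on Day 16. The other 7 endothelial markers did not follow this pattern. The part of KDR-expressing cells in the change of WNT2 was not tested.

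Other genes of the pathway were read from a list of 69, of which 60 were tested. Over both days, 10 were higher and 25 lower in P-DF than in NP-IWP2, where 14.3% of all genes were higher and 19.8% lower, and the WNT members had 6 higher and 14 lower of 35. Lower genes included KREMEN2, a DKK receptor (−2.18 on the log2 scale), and TLE1, a TCF co-repressor (−3.26). KREMEN2 was scarce, at 0.36 FPKM or less in every library. The lower genes were not all inhibitors, since the agonist RSPO4 was among them. Higher genes included the DKK receptor KREMEN1 (0.94), the WNT5A receptor ROR1 (1.09) and the membrane inhibitor APCDD1 (1.26). For P-IWP2 against NP-IWP2 over both days, ROR1 was higher (1.01), TPBG and TCF7L1 were lower (−1.01 and −0.63), and of the members FRZB was lower (background 0.425% and 2.14%). Without replicate 5, 7 of the other genes were higher and 21 lower, and 3 members were higher and 11 lower (background 10.3% and 14.5%).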

How the data were processed

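The authors deposited raw read counts per gene and FPKM values for 12 libraries in a single table. Per the submitters' processing notes, reads were trimmed with cutadapt 1.9.1, aligned to hg38 with HISAT2 2.0.1 and counted with HTSeq 0.6.1; DESeq2 is also named there. The deposited FPKM equalled counts over length and total reads in 100% of values (tolerance 0.005 FPKM). Counts were tested with edgeR 4.0.16 in R 4.3.3 (quasi-likelihood test, TMM, filterByExpr, a model of 6 groups), adjusted by Benjamini-Hochberg over all genes tested. Comparisons over both days used treatment and day as terms on 8 libraries. Alternatives used DESeq2 1.42.0, limma 3.58.1 on log2(FPKM + 1) or log2(FPKM + 0.1), other scalings and filters, and left out each library. On simulated counts for P-DF against NP-IWP2 on Day 16 (19505 genes), 15 of 100 genes changed 2-fold and 55 of 100 changed 4-fold were recovered, with 8 false calls. Apart from the changed genes, all simulated libraries had the same mean per gene, with spreads estimated with P-IWP2 Day 12 replicate 5 included. The simulation thus lacks the wide group differences of these data. Replicate numbers are shared between days only, and deviations of same-numbered samples correlated at 0.131, −0.036 and −0.053. At these depths 3 reads equal 0.156 to 0.202 FPKM on 1 kb. Members called in a treatment comparison and the most abundant of each role are given library by library. The members and lists were chosen with earlier results of these data known.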

Additional observations from a re-analysis of the deposited data

Results flagged for a closer look

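In 5 cases the difference between passaged and static cells itself changed from Day 12 to Day 16, as tested by the interaction term of the edgeR model with Benjamini-Hochberg adjustment over 19505 genes. FZD2 shifted by 2.25 ± 0.32 on the log2 scale for P-DF (adjusted p = 0.0256, background 0.174% higher) and by 1.64 ± 0.32 for P-IWP2 (adjusted p = 0.04, background 0.774% higher). Its log2 differences were negative on Day 12, where neither treatment passed in this fit, and positive on Day 16, where both passed. FZD9 shifted by 4.02 ± 0.72 for P-IWP2 (adjusted p = 0.0295). DKK1 shifted by −7.10 ± 1.14 for P-IWP2 (adjusted p = 0.0218, background 1.06% lower) and NKD1 by −5.28 ± 0.91 (adjusted p = 0.0274). Without P-IWP2 Day 12 replicate 5 each passed again, with FZD2 at 2.25 and 2.02, FZD9 at 3.40, DKK1 at −5.56 and NKD1 at −4.47. The calls were not firm, since FZD2 was lost in 9 (P-DF) and 10 (P-IWP2) of the 12 fits that left out a library, and FZD9, DKK1 and NKD1 in 8 each. For P-DF, where the test was not passed, FZD9 stood at 3.26, DKK1 at −4.34 and NKD1 at −2.87 (adjusted p = 0.0912, 0.197 and 0.19). Whether P-DF and P-IWP2 differ in these shifts was not tested.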

How the results depend on the processing

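No member value that passed the threshold changed sign under any alternative run. Of 81 such values, 6 were lost with total counts, 4 with robust dispersion, 0 with DESeq2 and 0 to 28 with a library left out; 30 of 80 were lost with other libraries in the fit, 7 and 6 of 66 with limma on log2(FPKM + 1) and log2(FPKM + 0.1), and 9 of 37 with the replicate block. The counts below are members called, each with the share of all genes called in parentheses. In the fit reported, P-DF, P-IWP2 against NP-IWP2 and P-IWP2 against P-DF had 2 (4.01%), 1 (1.66%) and 0 (0%) on Day 12, 10 (15.3%), 10 (17.1%) and 0 (0%) on Day 16, and 20 (34.1%), 1 (2.57%) and 0 (0%) over both days. Time had 2 (1.98%), 13 (13.6%) and 17 (27.0%) in NP-IWP2, then P-DF, then P-IWP2, and day dependence 1 (0.482%) and 4 (1.84%).

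DESeq2 gave 9 (7.59%), 3 (3.13%) and 2 (0.981%) on Day 12, 4 (6.20%) for P-IWP2 against NP-IWP2 over both days, 6 (6.04%) for time in NP-IWP2, and 4 (2.89%) and 8 (7.79%) for day dependence. With no filter on low counts, where the share is over many more genes of few reads, there were 16 (7.70%), 10 (3.79%) and 12 (4.18%) on Day 12, 18 (11.6%), 17 (12.3%) and 1 (1.60%) on Day 16, 4 (3.92%) and 5 (2.67%) for P-IWP2 against NP-IWP2 and P-DF over both days, 16 (5.07%) for time in NP-IWP2, and 11 (2.79%) and 16 (6.77%) for day dependence. Fitting only the groups compared, or all libraries where the fit held 8, gave 24 (29.8%) and 0 (0%) against NP-IWP2 on Day 12, 23 (40.1%), 17 (29.2%) and 2 (1.56%) on Day 16, 11 (14.8%) and 4 (5.65%) over both days, 23 (28.3%), 22 (37.3%) and 0 (0%) for time, and 14 (12.6%) and 0 (0.194%) for day dependence. Day dependence of P-DF had 0 with total counts (0.415%) and 0 with limma on log2(FPKM + 0.1) (0.508%), and that of P-IWP2 2 with limma on log2(FPKM + 1) (2.67%). Total counts moved the median of all genes to −0.25 (P-DF) and −0.31 (P-IWP2) on Day 16.

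Leaving out 1 library in turn gave 1 to 24, 1 to 18 and 0 to 24 on Day 12, 3 to 23, 3 to 19 and 0 to 2 on Day 16, and 19 to 22, 1 to 14 and 0 over both days. Time gave 0 to 19 for NP-IWP2, 3 to 22 for P-DF and 7 to 22 for P-IWP2, and day dependence 0 to 11 and 0 to 16. With the replicate block, time had 1 (0.790%) for NP-IWP2, 11 (9.52%) for P-DF and 15 (23.9%) for P-IWP2, and day dependence 1 (0.0615%) and 4 (1.99%). No replicate block was possible between treatments because they share no replicate numbers. Depth limits the scarce members, since groups with 1 to 3 reads leave ratios with wide intervals.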

Other observations

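The other R-spondins, which like RSPO3 strengthen WNT signaling, were higher in static than in passaged libraries on Day 16. RSPO1 was 2.69 and 3.30 FPKM in NP-IWP2 on Day 12 and 3.60 and 5.66 on Day 16, and in the passaged libraries it was 0 to 0.04 except for 1.86 in P-IWP2 Day 12 replicate 5. RSPO4 was 4.20 to 5.33 FPKM in the static libraries, 7.12 in replicate 5, 0.89 to 1.58 in the other passaged libraries on Day 12 and 0.18 to 0.32 on Day 16, and over both days it was lower in P-DF by a log2 difference of −2.80 ± 0.38 (edgeR adjusted p = 0.000541). RSPO2 was 5.84 and 5.71 FPKM in NP-IWP2 on Day 12 and 3.01 and 2.91 on Day 16, and 0 to 0.09 in the passaged Day 16 libraries. RSPO2 was chosen after its values were seen.

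TNFRSF19, a receptor known as a β-catenin target, was 33.7 and 31.7 FPKM in NP-IWP2, 145.1 and 113.1 in P-DF, and 29.9 (replicate 5) and 145.8 in P-IWP2 on Day 12, and 30.7 and 26.7, 66.3 and 57.9, and 52.5 and 48.2 on Day 16. Over both days it was higher in P-DF by 1.69 ± 0.17 on the log2 scale (edgeR adjusted p = 8.0e-05).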
